A study of Mus musculus with 2 samples.

Results

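Ribosomes are assembled in the nucleolus, where RNA polymerase I makes the precursor of ribosomal RNA. Small nucleolar ribonucleoproteins modify this precursor, processing complexes fold and cleave it, and ribosomal proteins join it to form the small and the large subunit. Growing cells, mouse embryonic stem (ES) cells among them, express the genes for these factors strongly, and the transcription factor Myc is known to promote them. The genes described here are the rows of the expression table whose symbols name such nucleolar factors, from the families Nol, Nop, Rrp, Utp, Exosc, Polr1, Gnl and Tsr together with single factors such as Ncl, Npm1 and Fbl. They were picked by matching symbols, and 83 of 14261 rows matched. The list of symbols was drawn up with earlier results of these data known.

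RNA-seq was done on 2 cultures of TRE-ESC, mouse ES cells kept in suspension in low adsorption dishes in N2B27 medium with the inhibitor pair 2i and the cytokine LIF. The control culture received no agent, and the other received doxycycline (dox), a drug used to switch on tetracycline-controlled transgenes. Both are labelled 36 h, and the study concerns differentiation induced by c-Jun. The labels used here do not describe the transgene, its promoter or how many clones were used. With only these 2 cultures, an effect of dox itself cannot be told apart from one of c-Jun. There was 1 library per group and thus no replicate, so no difference below was tested, and how far 2 like cultures would differ is unknown. Where a gene is said to stand at a pair of values, the first is without dox and the second with dox.

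The deposited values are whole numbers, taken to be normalized by the authors since quartiles of 14, 62 and 184 are common to the libraries, and the depth of each library is unknown. Jun was listed at 55 without dox and 3821 with dox. All 10 ES cell markers checked reached a value of 50, and their summed value was 16055 without dox and 10284 with dox. Only Pou5f1 was higher with dox, at 3230 and 3572, and Dppa5a was slightly lower, at 4342 and 3818. The others were lower by more than Dppa5a. Nanog stood at 2508 and 623, Tdgf1 at 1137 and 231, Esrrb at 1531 and 500 and Utf1 at 270 and 73. Zfp42 stood at 1047 and 459, Sall4 at 590 and 287, Sox2 at 1042 and 521 and Lin28a at 358 and 200. Of 10 fibroblast markers none reached 50, and their sum was 33 and 80. Col3a1 stood at 2 and 39, Col1a2 at 8 and 19, Pdgfra at 4 and 8, Col1a1 at 2 and 3 and Thy1 at 0 and 1. Postn, at 11 and 8, and Pdgfrb, at 6 and 2, were lower with dox. Lum, Dcn and Twist2 were at 0 in both libraries. Lars2, a gene known to collect reads of ribosomal RNA, was listed at 14907, the highest value of the table, and 646. Gm42418 and Gm26917, looked at beside it, were listed at 14907 and 1393 and at 1990 and 505. The part of reads of ribosomal RNA, or of the ES cell markers that were lower, in the results below was not tested. In bulk RNA, fewer cells of a type and less RNA per cell cannot be told apart.

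Nearly all nucleolar factors had a lower value with dox, and most by less than 2-fold. Of the 83 genes, 81 had a value of at least 50 in one of the libraries, the floor used here, and 75 of these 81 (92.6%) were lower with dox. Among all 8547 genes at the floor 54.9% were lower. The median log2 ratio of dox over no dox was −0.49 for the nucleolar genes, a 1.40-fold lower value, and −0.08 for all genes. Log2 ratios and fold differences, here and below, were computed after adding 10 to each value unless another setting is named. A difference of at least 1.5-fold in the lower direction was seen in 32 of the 81, or 39.5%, against 17.7% of all genes. At a threshold of 2-fold 5 of the 81 (6.17%) were lower, which is close to the 5.49% of all genes. In the other direction 1 of the 81 was higher, against 9.23% of all genes. The shift was therefore broad and small rather than carried by a few large differences.

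**Figure D1:**
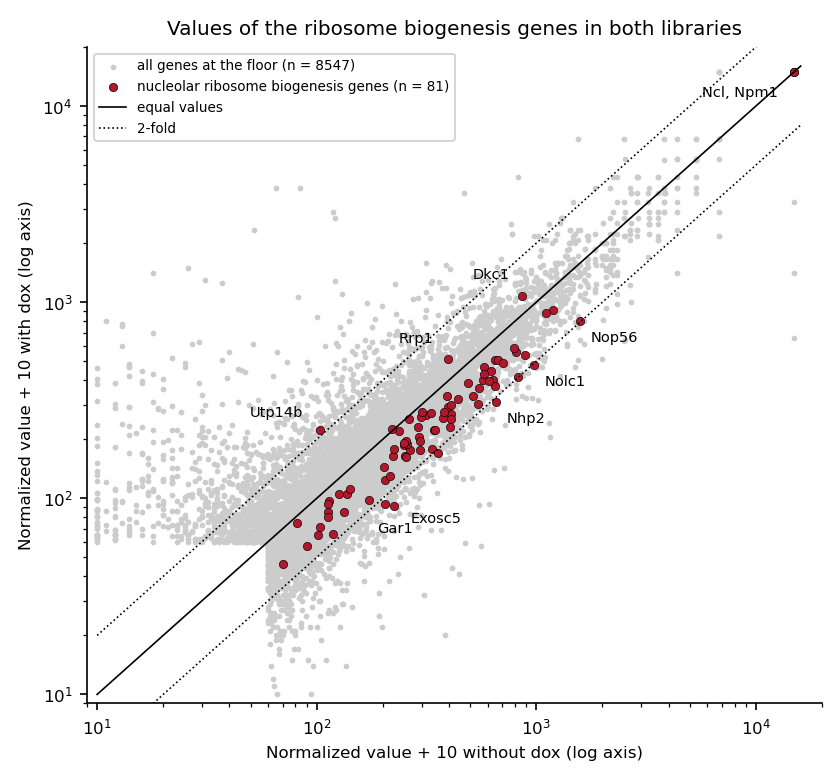
Normalized value plus 10 of each gene without dox (horizontal, log axis) and with dox (vertical, log axis), 1 library per group. Red points are the 81 nucleolar ribosome biogenesis genes at the floor, of which 75 lie below the line of equal values, and grey points are all 8547 genes at the floor.

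The ratios of the nucleolar genes also lay closer together than those of genes in general. Their lower and upper quartiles were −0.65 and −0.33 on the log2 scale, an interquartile range of 0.31, against 0.78 for all genes. A narrow range was not particular to them. It was 0.36 for the other ribosome biogenesis genes and 0.40 for the mitochondrial ribosomal protein genes, both described below. The 6 genes at the floor without a lower value were Ncl and Npm1, which had equal values, and Dkc1, Rrp1, Nop9 and Utp14b, which were higher with dox. Under the floor were Utp23, at 34 and 35, and Nol4, at 2 and 2. Nol4 and its paralog Nol4l, at 60 and 36, match by symbol but are not known as ribosome biogenesis factors.

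Because nearly all of these genes were lower, their promoters were searched for letters they might share. The E-box CACGTG, which reads the same on both strands, is bound by Myc with its partner Max. RefSeq promoters on GRCm38.p6, from 250 bases before to 50 after the start, were at hand for 66 of the 81 genes, and 15 of these (22.7%) held CACGTG. Of all 6693 genes at the floor with a promoter, 13.0% did, and 8.09% of the 27025 genes that have any promoter listed. The AP-1 motif TGAGTCA, or TGACTCA on the other strand, stood in 0 of the 66, against 4.17% of the genes at the floor. The CRE TGACGTCA also stood in 0, against 4.05%. Of 82 other ribosome biogenesis genes with a promoter, 15.9% held the E-box, 1.22% the AP-1 motif and 7.32% the CRE. In that list the E-box share was thus nearer to that of the genes at the floor. The lack of the CRE did not carry over, while the AP-1 share was low there as well. Of the 15 genes with an E-box, 8 had one before the start. The start of Utp14b used here is that of RefSeq, and it lies inside the span that GENCODE gives the gene, from 78658038. The stretches below, from base −70 to base −11, are from the 6 genes whose E-box lies in that window, and the capitals mark it.
Exosc5, chr7:25659083-25659142, plus strand: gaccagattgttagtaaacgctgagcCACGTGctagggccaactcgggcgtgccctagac
Rrn3, chr16:13780629-13780688, plus strand: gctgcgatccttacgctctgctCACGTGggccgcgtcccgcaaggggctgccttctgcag
Utp18, chr11:93885777-93885836, minus strand: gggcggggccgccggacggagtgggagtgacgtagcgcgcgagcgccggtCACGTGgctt
Nol11, chr11:107189392-107189451, minus strand: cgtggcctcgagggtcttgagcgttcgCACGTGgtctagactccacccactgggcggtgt
Nop2, chr6:125131813-125131872, plus strand: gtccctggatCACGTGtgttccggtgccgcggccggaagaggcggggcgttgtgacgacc
Utp14b, chr1:78658370-78658429, plus strand: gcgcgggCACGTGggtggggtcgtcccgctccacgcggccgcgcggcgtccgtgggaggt

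These 6 genes span the range of the whole list, since Exosc5 has its lowest log2 ratio, −1.31, and Utp14b its highest, 1.11. The 15 genes with an E-box had a median log2 ratio of −0.53 and the 51 without one −0.50. Whether the ratios go with the letters was not tested. Among all genes at the floor the medians were −0.16 for the 872 with an E-box and −0.06 for the 5821 without. A match describes letters and is no evidence of binding. As for the Myc family itself, Mycn stood at 189 without dox and 57 with dox, Mycl at 127 and 27, Myc at 34 and 4, which is under the floor, and Max at 184 and 233.

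Transcription of ribosomal DNA was represented by 7 genes, and all 7 were lower with dox, with a median log2 ratio of −0.60. Rrn3, the factor that joins polymerase I to its promoter and whose E-box is printed above, stood at 874 and 528, a log2 ratio of −0.72. Ubtf, which keeps ribosomal DNA open and bends it, stood at 795 and 550. The largest catalytic subunit gene Polr1a stood at 570 and 457, and the second, Polr1b, at 399 and 260. Subunit genes of one enzyme thus differed in size, as the pair shared with polymerase III shows. Polr1c stood at 530 and 291, a ratio of −0.84, and Polr1d at 304 and 257, a ratio of −0.23. Polr1e, a subunit specific to polymerase I, stood at 80 and 47.

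**Figure D2:**
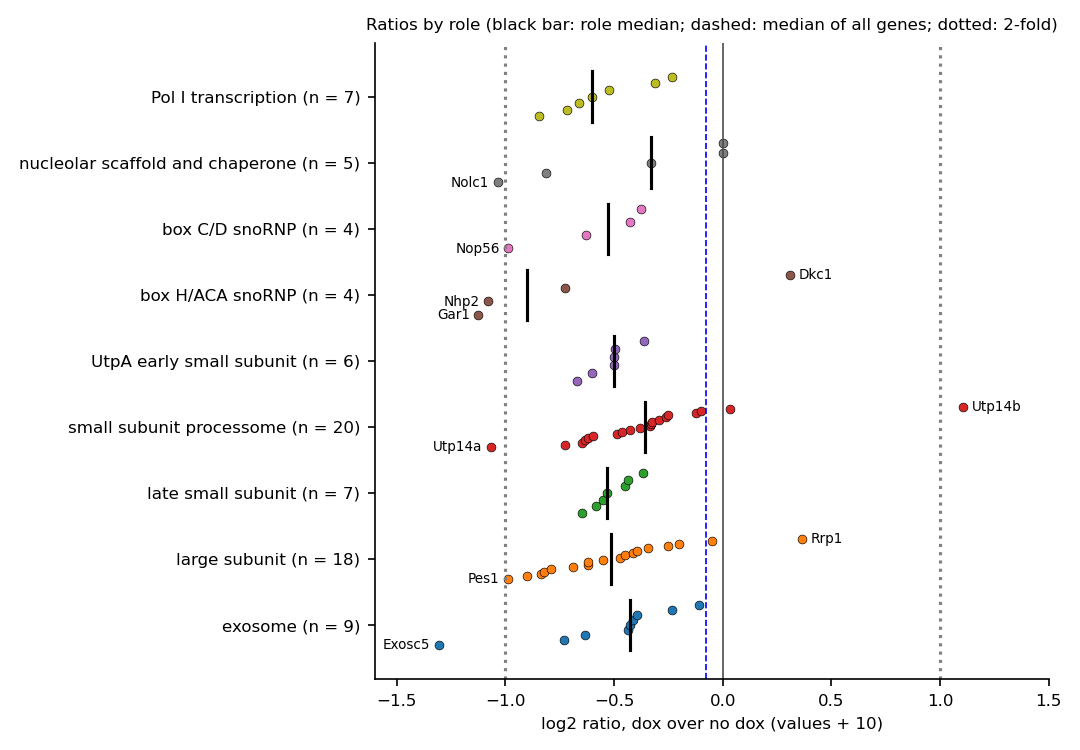
Log2 ratio of dox over no dox (horizontal) of 80 nucleolar ribosome biogenesis genes at the floor, in rows by role, 1 point per gene. Nol4l is left out. Black bars are role medians, which all lie between −0.90 and −0.33, below the dashed median of all genes at −0.08.

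Among nucleolar scaffold proteins and chaperones 3 of 5 genes were lower. Nolc1, which encodes the phosphoprotein Nopp140 that escorts small nucleolar ribonucleoproteins, stood at 966 and 466, 2.05-fold lower. By value it went from rank 432 of all rows to rank 1249. Npm3, a partner of nucleophosmin, stood at 396 and 221, and Ddx21, a helicase that links polymerase I transcription with processing, at 1101 and 875. Ncl and Npm1, the genes of nucleolin and nucleophosmin, stood at 14907 in both libraries. This is the highest value of the table, it is shared by 10 genes in each library, and the next value below it is 6787. A difference inside that set cannot be seen, so the equality of Ncl and Npm1 says nothing of their change. Without both genes the median of this role is −0.81 in place of −0.33.

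Of the small nucleolar ribonucleoprotein genes, all 4 of box C/D and 3 of 4 of box H/ACA were lower, and within each class the subunits differed. The box C/D particles guide methylation of ribosomal RNA. Their core genes were Nop56, at 1569 and 787, Nop58, at 1178 and 905, and the methyltransferase gene Fbl, at 778 and 577. Nop56 was 1.98-fold lower, just inside the 2-fold threshold, while its paralog Nop58 was 1.30-fold lower. Their log2 ratios were −0.99 and −0.38, and with the length trend removed −0.89 and −0.59, so the gap was smaller. Exons of Nop56 overlap those of Idh3b on the other strand, and Idh3b stood at 322 and 237. Rrp9, a protein of the U3 particle, stood at 333 and 212.

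The box H/ACA particles guide pseudouridylation and share their core with telomerase. Gar1 stood at 195 and 84, 2.18-fold lower, and Nhp2 at 645 and 300, 2.11-fold lower. Nop10 stood at 195 and 114. The catalytic subunit gene Dkc1 went the other way, at 855 and 1063, 1.24-fold higher. The core of this particle was thus the most divided among the complexes plotted, with log2 ratios from −1.12 to 0.31. Transcript length goes with this division: the longest annotated transcripts of Gar1, Nhp2 and Nop10 have 1271, 1042 and 1109 bases and that of Dkc1 has 2804, and across all genes short transcripts had lower ratios. With the trend on length removed the log2 ratios were −0.77, −0.69 and −0.34, and 0.47 for Dkc1, so the order of Dkc1 above the others was the same. Exons of Nhp2 overlap those of Rmnd5b on the other strand, which stood at 220 and 102, and nothing in the labels says that strand was kept.

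**Figure D3:**
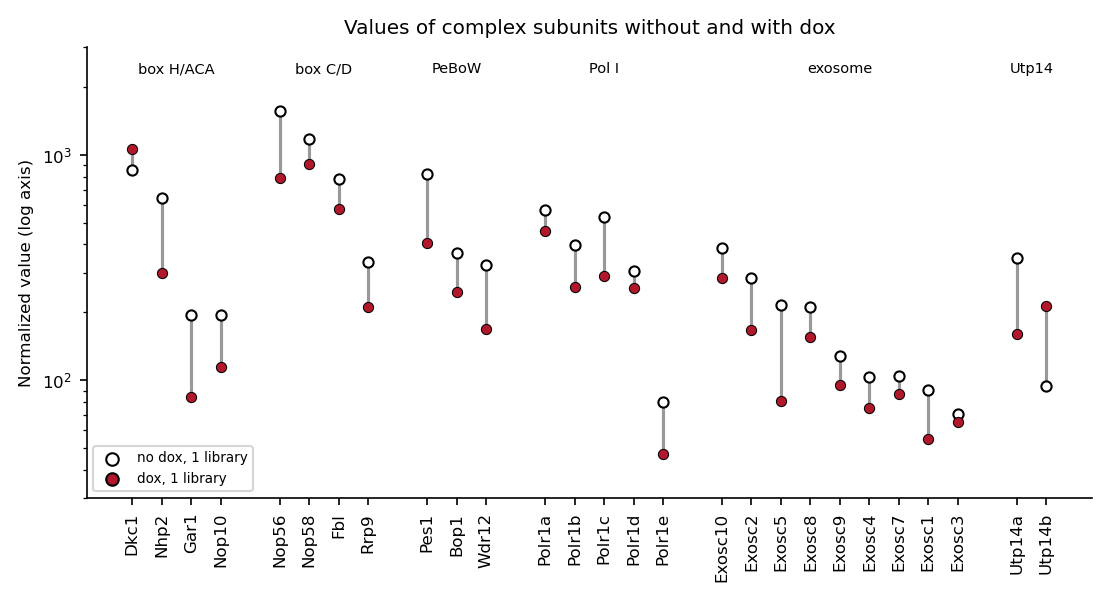
Normalized value (log axis) of subunits of 5 complexes and of the Utp14 pair, without dox (white) and with dox (red), 1 library each, joined by a grey line. Of the 27 genes drawn, Dkc1 and Utp14b are higher with dox and all others are lower.

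The early complex UtpA, which binds the nascent precursor, was even, with log2 ratios of its 6 genes between −0.67 and −0.36. Wdr43 stood at 627 and 390, Heatr1 at 560 and 393 and Utp4 at 640 and 495. Wdr75 stood at 541 and 353, Utp15 at 193 and 134 and Nol11 at 281 and 196. All 6 were lower, and none by 2-fold.

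In the rest of the small subunit processome 18 of 20 genes at the floor were lower, with a median of −0.36. The processome subunit gene Nol6 stood at 599 and 386, the large scaffold gene Utp20 at 567 and 419 and Utp6 at 476 and 376. Of the trimer that anchors the U3 particle, Imp3 stood at 205 and 120, Imp4 at 286 and 186 and Mphosph10 at 245 and 153. These 3 genes had log2 ratios of −0.73, −0.59 and −0.65, close to each other. Their longest transcripts have 924, 5836 and 2276 bases. With the length trend removed the ratios were −0.32, −0.68 and −0.45, so they were less close and in another order. The helicase genes Ddx10, at 371 and 266, and Ddx52, at 214 and 168, differed less. Near equality were the assembly factor genes Nop14, at 291 and 266, Dcaf13, at 226 and 210, and Nop9, at 211 and 216.

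Utp14a and Utp14b went in opposite directions. Utp14a, on chromosome X from 48256862, stood at 348 and 161, 2.09-fold lower. Utp14b, its autosomal retrogene on chromosome 1 from 78658038, stood at 94 and 214, 2.15-fold higher, and was the single member past 2-fold in that direction. Its exons overlap those of Acsl3 on the same strand, an acyl-CoA synthetase gene that stood at 256 and 780, 2.97-fold higher. Reads of Acsl3, or of Utp14a as the source of the copy, could be counted to Utp14b, so its value is uncertain.

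Late maturation of the small subunit was represented by 7 genes, all lower, with log2 ratios from −0.65 to −0.37. Tsr1, a factor bound to the late pre-subunit, stood at 697 and 479. The endonuclease gene Nob1, which makes the last cut of the small subunit RNA, stood at 398 and 289, and Bysl, an assembly factor, at 244 and 187. The transport factor gene Rrp12 stood at 255 and 167 and Ltv1, a factor released during maturation, at 247 and 180.

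Of 18 large subunit factors 17 were lower, with a median of −0.51. The complex PeBoW, required for processing of the large subunit precursor, was lower in all 3 subunits. Pes1 stood at 818 and 407, 1.99-fold lower, Wdr12 at 324 and 169, 1.87-fold lower, and Bop1 at 367 and 247, 1.47-fold lower. Nop2, a methyltransferase gene used as a proliferation marker, stood at 610 and 437, and Nop53 at 657 and 497. The nucleostemin gene Gnl3, known for high expression in stem cells, stood at 639 and 365, while its paralog Gnl3l was nearly level, at 254 and 245. The assembly factor gene Rrs1 stood at 399 and 244 and Nop16 at 163 and 88. Rrp1 was the exception, at 387 and 501, 1.29-fold higher, whereas its paralog Rrp1b stood at 384 and 321.

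The RNA exosome trims the ends of ribosomal RNA and degrades many other RNAs in nucleus and cytoplasm. All 9 genes with an Exosc symbol were lower, with a median of −0.43, which was −0.23 with the length trend removed. The catalytic subunit gene Dis3, which the symbol rule does not take, stood at 246 and 223. Exosc5, a subunit of the ring, stood at 215 and 81, 2.47-fold lower, the lowest ratio of the whole list. The next, Exosc2, stood at 284 and 167, a ratio of −0.73, so Exosc5 lay apart from the other subunits. Exosc10, which encodes a nuclear catalytic subunit, stood at 386 and 283 and Exosc8 at 212 and 155. Exosc7 at 104 and 87 and Exosc3 at 71 and 65 were the nearest to equality. Exons of Exosc5 overlap those of Tmem91 on the other strand, and 33 of the 81 genes share exonic positions with some other gene on either strand.

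Small nucleolar RNAs are often made from introns of genes of this kind. In GENCODE M21, 8 of the genes hold 22 annotated small nucleolar RNAs on their strand, among them Nop56 with 5, Nop58 with 4 and Ncl, Gnl3 and Wdr43 with 3 each. The median log2 ratio of these 8, one of which is Ncl at the highest value, was −0.46 and that of the other 73 at the floor −0.49. With the length trend removed the medians were −0.50 and −0.34, and the difference was not tested.

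Of other ribosome biogenesis genes, taken from a list of 103 factors whose symbols the rule does not name, 97 were at the floor. Of these 87 were lower and 10 higher, with a median of −0.45. At least 2-fold lower were 5 (5.15%), no more than the 5.49% of all genes, and 0 were at least 2-fold higher, against 9.23%. The 5, given as a description, were Nle1, at 161 and 55, Rpp25, at 537 and 234, Ddx49, at 241 and 111, Taf1d, at 306 and 145, and Ddx31, at 85 and 37. Nle1 acts in large subunit maturation, Rpp25 belongs to the nucleases P and MRP, and Taf1d to the promoter factor of polymerase I. The polymerase I subunit genes on this list were also lower, Znrd1 at 94 and 60, Twistnb at 176 and 127 and Cd3eap at 119 and 87. Of the 10 that were higher, 8 belong to the large subunit, a role with 40 of the 97 genes, of which 32 were lower. Among all 8547 genes at the floor 3771 were higher. Mitochondrial ribosomal protein genes, which serve a different ribosome, were lower in 71 of 74, against 54.9% of all genes, with a median of −0.51. With the length trend removed the medians were −0.28 for the mitochondrial list, −0.29 for the other ribosome biogenesis genes and −0.34 for the nucleolar genes. A difference between the lists was not tested.

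**Figure D4:**
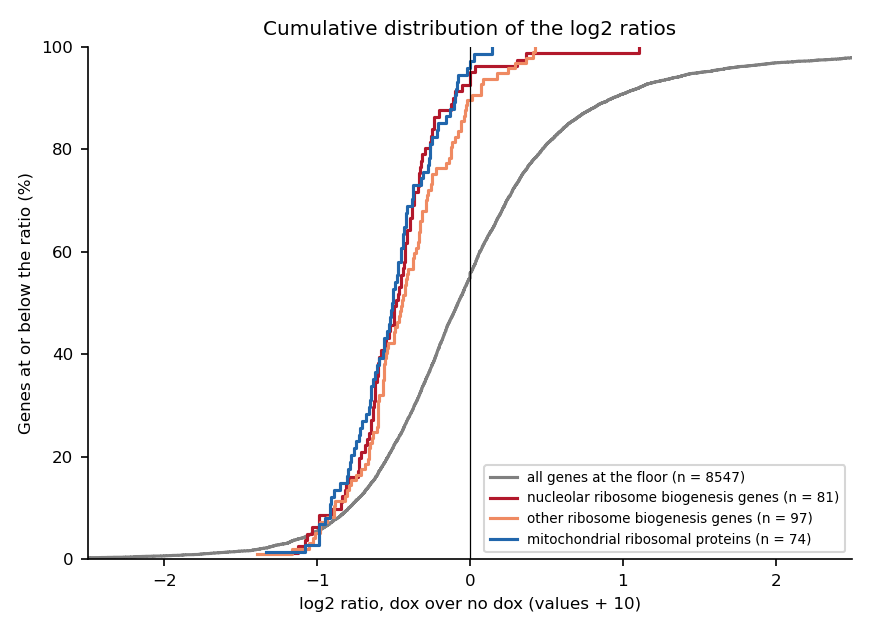
Share of genes (vertical, percent) at or below each log2 ratio of dox over no dox (horizontal) for 81 nucleolar ribosome biogenesis genes, 97 other ribosome biogenesis genes, 74 mitochondrial ribosomal protein genes and all 8547 genes at the floor. The curves of the 3 lists lie close together, with medians of −0.49, −0.45 and −0.51, to the left of that of all genes, at −0.08.

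Removing the trend of the ratios on transcript length reduced the median of the nucleolar genes to −0.34 and left 72 of 81 below 0, against 48.8% of all genes. With that trend removed, Polr1d, Exosc3, Nol7 and Nop14 were above 0, beside Dkc1, Rrp1, Nop9 and Utp14b. Npm1 and Ncl, tied at the highest value, have no direction to read under that setting.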

How the data were processed

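Libraries of total RNA from the 2 cultures came from a TruSeq kit and were read on a NextSeq instrument, per the labels' protocols. The submitters' processing notes name bcl2fastq, Bowtie2, RSEM and mm10. Which versions, annotation and normalization were used is not given in the sources used here. All deposited values were treated as a score on a count scale, normalized and rounded by the authors, as inferred from equal quartiles, a shared highest value and 75.5% of sorted positions being equal (tolerance 0). Such a scale does not keep depth, so no count model, interval or test was used.

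Log2 ratios and fold differences used a pseudocount of 10 and a floor of 50 on the larger value, and thresholds of 2-fold and 1.5-fold. All 83 symbols matched GENCODE M21 (GRCm38), which gave coordinates, overlaps and the longest transcript. The length trend was removed with lowess (fraction 0.3). Named were the members past 2-fold, the 3 with the largest mean value per role and the 2 highest and lowest ratios. Further members were named after their values were seen. The genes, roles and lists were chosen with earlier results of these data known. The steps were tested on simulated data and used Python 3.11.15, with statsmodels 0.14.6 for lowess, pandas 2.3.3, numpy 2.4.6 and matplotlib 3.10.9.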

Additional observations from a re-analysis of the deposited data

How the results depend on the processing

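The median log2 ratio of the nucleolar genes stayed below 0 under the alternatives run, between −0.51 with a pseudocount of 1 and −0.34 with the length trend removed. All 88 recomputed role medians were below 0 too, but 16 moved by over 0.1. The box H/ACA median went from −0.90 to −0.38 with a floor of 250, where only Nhp2 and Dkc1 remain. Removing the length trend took the box H/ACA median to −0.52. Under this setting the exosome median went from −0.43 to −0.23 and that of the late small subunit from −0.53 to −0.29. The scaffold and chaperone median went from −0.33 to −0.16 without overlapping genes. The count of genes with a lower value was a measure added after seeing the data. It was 72 of 81 with the length trend removed (Ncl, tied at the highest value, included), against 48.8% of all genes. With a floor of 250 it was 46 of 50, against 53.8% of all genes. Without genes whose exons overlap another gene it was 45 of 48, an alternative also added after seeing the data. The share of all genes is 54.9% there. The count at least 2-fold lower was 5 of 81, near the 5.49% of all genes, and it depended on the settings. At 1.5-fold it was 32, against 17.7% of all genes. With a floor of 250 it was 3 of 50, or 6%, near the 4.71% of all genes. Without overlapping genes it was 2 of 48. It was 6 with a pseudocount of 1 and 1 with a pseudocount of 50. With the median of all genes set to 0 it was 3, and with the length trend removed 2. The shares of all genes under these last 4 settings are not given, so their counts are a description only. Beyond what these settings change by construction, the cause was not tested. The count at least 2-fold higher was 1, against 9.23% of all genes. It was 0 with a floor of 250, where 298 of all 3118 genes were higher by as much. It was also 0 with the length trend removed, with a pseudocount of 50 and without overlapping genes. The unknown depth and the single library per group leave the error of each value unknown. No paired analysis was possible because each group has 1 library.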
